A study of Sus scrofa with 10 samples.

Results

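DCX, STMN1 and MLLT11 are genes that many newborn neurons express, chosen here by name as 3 of the 22452 genes counted in single cells of the developing and adult pig medial entorhinal cortex (MEC). They were followed in neurons, neuronal progenitors, glia and dividing cells of all 10 libraries, which held 28229 cells and 207176999 unique molecular identifiers (UMIs, each standing for 1 captured RNA molecule). Whole cells came from crossbred fetuses at embryonic day (E) 50, with 1 library from 3 pooled brains, at E60, with 3 libraries, and at E70, with 3 libraries. Whole cells also came from 1 adult brain, with 1 library, and isolated nuclei were sequenced from E70 and adult MEC, with 1 library of 1 brain each. The labels call the postnatal libraries adult and the study's methods name sows, while its results text gives postnatal day 75, and this was not resolved. The E60 and E70 whole-cell libraries each came from 1 or 2 brains, so p-values measure the spread between such libraries. No genotype or treatment differed between the groups.

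Microtubules give the migrating neuron its leading process and pull its nucleus forward, and they form the spindle of a dividing cell. DCX, or doublecortin, binds and stabilises microtubules in migrating neurons, and its loss in people disturbs cortical layering. STMN1, or stathmin 1, binds free tubulin and promotes microtubule disassembly, and it is known both in growing neurons and in proliferating cells, where mitotic kinases switch it off. MLLT11, first known as a fusion partner of a leukaemia gene, codes for a small protein that is enriched in developing neurons.

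The 250 bases before each gene's annotated start are shown because they are the nearest upstream sequence of the 3 genes whose levels are compared below. They were read from the RefSeq assembly Sscrofa11.1, 5′ to 3′ on the minus strand that carries all 3 genes, and capitals mark the match to CANNTG, the E-box that proneural basic helix-loop-helix factors bind, searched on both strands.
DCX, chrX:91644573-91644822: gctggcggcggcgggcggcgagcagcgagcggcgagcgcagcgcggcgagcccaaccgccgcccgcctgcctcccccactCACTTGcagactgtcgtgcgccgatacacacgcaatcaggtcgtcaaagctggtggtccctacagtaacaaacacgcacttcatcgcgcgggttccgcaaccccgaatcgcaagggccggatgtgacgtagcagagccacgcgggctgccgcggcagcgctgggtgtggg
STMN1, chr6:83362547-83362796: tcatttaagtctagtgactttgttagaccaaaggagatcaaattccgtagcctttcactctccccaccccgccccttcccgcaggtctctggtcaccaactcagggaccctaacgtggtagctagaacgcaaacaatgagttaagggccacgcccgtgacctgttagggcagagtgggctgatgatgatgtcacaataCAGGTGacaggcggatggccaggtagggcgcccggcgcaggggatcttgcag
MLLT11, chr4:98171675-98171924: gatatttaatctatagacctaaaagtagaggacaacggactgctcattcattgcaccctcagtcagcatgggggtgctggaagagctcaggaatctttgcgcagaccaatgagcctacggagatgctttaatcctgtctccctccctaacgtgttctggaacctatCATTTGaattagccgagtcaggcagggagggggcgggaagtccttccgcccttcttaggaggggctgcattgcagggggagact
Each window held 1 match, and 61.9% of 19556 promoter windows of the same length held at least 1, so the match did not set the 3 genes apart. The DCX window had a GC content of 69.6% and 34 CpG dinucleotides, against medians of 57.6% and 12 over all windows, while the STMN1 and MLLT11 windows held 11 and 7.

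The genes differ in size, and the counts include intronic reads, whose share was not separated. DCX lies on chromosome X at 91317671 to 91644572 and spans 326902 bases, of which 4.27% are exonic. STMN1 lies on chromosome 6 at 83356404 to 83362546 and spans 6143 bases, of which 26.7% are exonic. MLLT11 lies on chromosome 4 at 98165990 to 98171674 and spans 5685 bases, of which 26.4% are exonic. STMN1 gave 655741 UMIs and ranked 12 among all genes by total count, MLLT11 gave 73935 and ranked 326, and DCX gave 23860 and ranked 1707.

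Cells were classed by clustering on other genes, with the 3 genes and all the marker and list genes left out, and clusters were named from those markers. The classes held 6216 excitatory neuron-like, 2726 interneuron-like, 560 intermediate progenitor-like, 5624 astroglia-like (radial glia and astrocytes together), 708 oligodendrocyte precursor (OPC)-like, 2080 oligodendrocyte-like, 2347 microglia-like, 2824 vascular-like and 1733 erythroid-like cells. A further 9.35% of cells stayed unnamed. EOMES, which defines intermediate progenitors, stood between 205 and 225 CPM (the gene's UMIs scaled to all UMIs of the class in the library) in that class in its 4 libraries with at least 20 such cells. The neurons of E60_1 and E60_2 fell almost wholly into the interneuron-like class, 735 of 748 and 94 of 95, yet the glutamatergic marker SLC17A6 stood at 83.1 and 143 CPM in them and the GABAergic marker GAD1 at 42.8 and 57.7, so the markers go against that name in these 2 libraries, and values of the interneuron-like class are given with and without them. The 34 neurons of the adult whole-cell library carried 2930 CPM of MBP, a myelin gene. Median UMIs per cell ran from 690 in the adult nuclei to 9403, and every level below is a summed CPM of a class in a library with at least 20 cells of it.

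DCX was highest by median in neurons and intermediate progenitors and lower in glia, though not in every library. Its level in neurons was 230 CPM at E50, 75.6, 65.5 and 319 in E60_1 to E60_3, 230, 215 and 274 in E70_1 to E70_3, 219 in E70 nuclei, 54.7 in adult whole cells and 121 in adult nuclei. Its level in intermediate progenitors was 280 CPM at E50, 331 in E60_3, 178 in E70_2 and 221 in E70_3. The low neuronal values were those of E60_1, E60_2 and the adult libraries, and the intermediate progenitors overlapped the neurons of the same libraries. In astroglia DCX ran from 27.8 to 87.9 CPM over 9 libraries, with a median of 40.2, and in each of those libraries the neurons were higher. OPCs had a median of 57.3 CPM over 6 libraries, with the highest value of 108 at E50 and no UMI in the 23 OPCs of the E70 nuclei. In E60_2 the OPCs, at 66.2 CPM, and the oligodendrocytes, at 57.0, lay near the neurons at 65.5, and in E60_1 the OPCs stood at 58.1. Microglia, vascular and erythroid cells, which should lack DCX, had medians of 11.0, 13.7 and 9.30 CPM, and the source of these UMIs was not tested.

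STMN1 was found in every class, and in the fetal libraries it was higher in neurons than in intermediate progenitors and astroglia, while in both adult libraries oligodendrocytes exceeded neurons. Its level in neurons was 8553 CPM at E50, 6517, 5265 and 4209 in E60_1 to E60_3, 2925, 2955 and 5028 in E70_1 to E70_3, 611 in E70 nuclei, 1129 in adult whole cells and 111 in adult nuclei. Intermediate progenitors stood at 4589, 2363, 2140 and 1926 CPM in E50, E60_3, E70_2 and E70_3. The E50 value was the highest in both classes, and each intermediate progenitor value was below the neurons of its library. Astroglia stood at 2437 CPM at E50, 1958, 2216 and 1110 at E60, 945, 1012 and 1119 at E70, 402 in E70 nuclei and 220 in adult whole cells. OPCs reached 2174, 2559 and 3093 CPM in E50, E60_1 and E60_2, above the astroglia of E60_1 and E60_2 and below those of E50. Microglia ran from 70.3 to 1079 CPM over 7 libraries, and they were above the erythroid cells in each of the 6 libraries where both were measured.

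MLLT11 had the largest ratio of neurons to astroglia of the 3 genes. Its level in neurons was 1599 CPM at E50, 789, 1195 and 197 in E60_1 to E60_3, 534, 698 and 163 in E70_1 to E70_3, 55.6 in E70 nuclei, 762 in adult whole cells and 10.8 in adult nuclei. The values of E60_3 and E70_3 were low for their stages, and the nuclei were lower still. Intermediate progenitors stood at 566, 104, 254 and 59.5 CPM in E50, E60_3, E70_2 and E70_3, each below the neurons of its library. Astroglia ran from 7.88 to 123 CPM with a median of 34.8, and in E50, E60_1 and adult whole cells, 3 of the 8 libraries with both classes, they were at or below the erythroid cells.

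**Figure D1:**
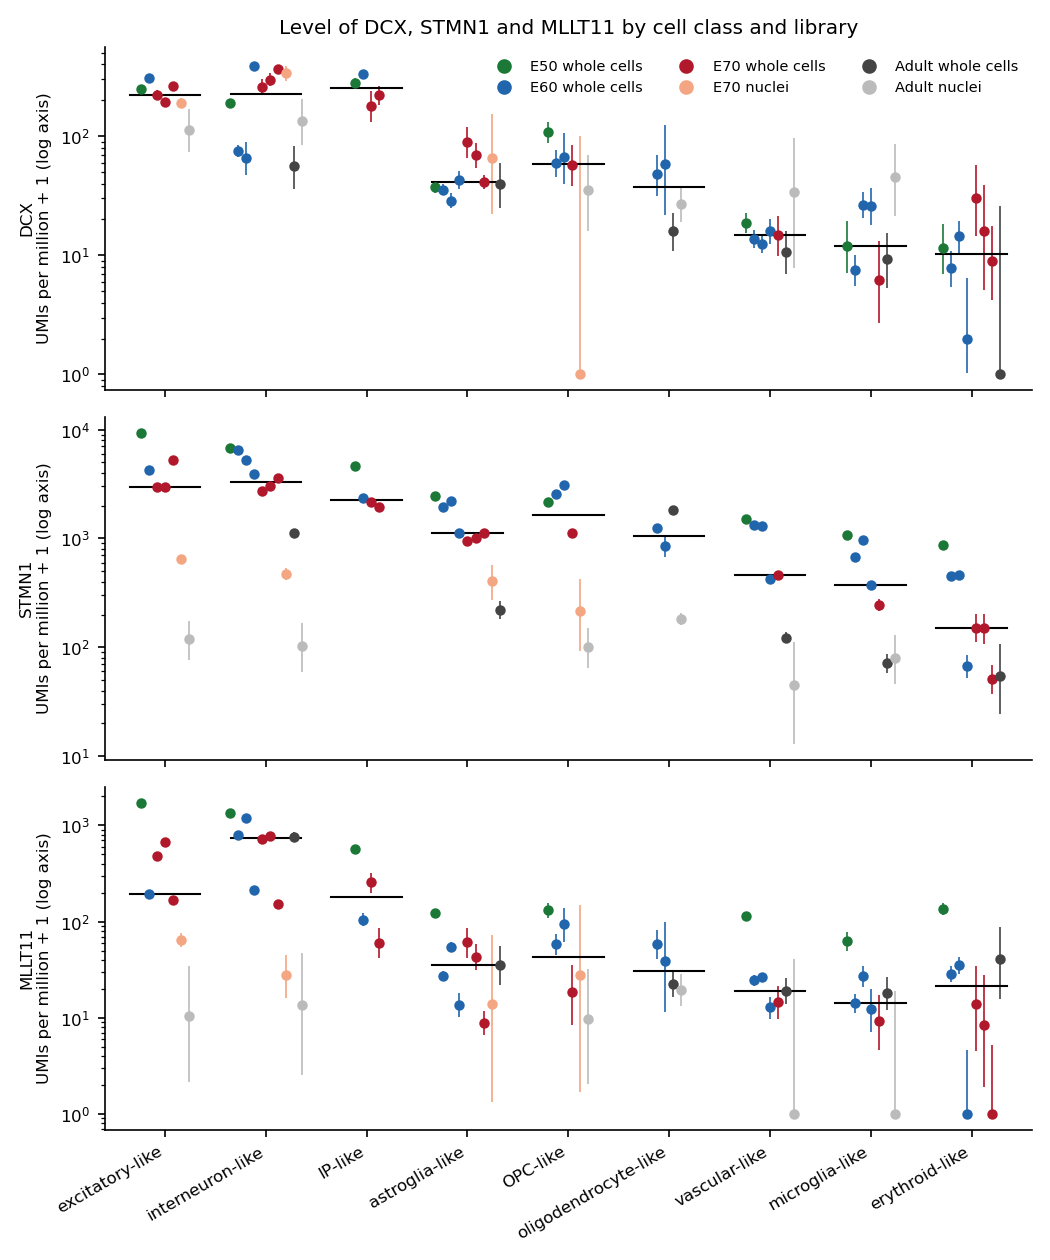
Level of DCX (top), STMN1 (middle) and MLLT11 (bottom) in 9 cell classes, as CPM plus 1 on a log axis, with 1 point per library coloured by group, bars for the 95% Poisson interval and a black line for the median over libraries. DCX and MLLT11 drop from the neuronal classes to the glia, while STMN1 falls in steps from a median of 3295 in interneuron-like cells to 1110 in astroglia and 150 in erythroid cells.

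By median over libraries, DCX ranked intermediate progenitors at 250 CPM, interneuron-like cells at 224 and excitatory neurons at 222 first, and STMN1 ranked interneuron-like cells at 3295, excitatory neurons at 2983 and intermediate progenitors at 2252 first. MLLT11 ranked interneuron-like cells at 741, excitatory neurons at 195 and intermediate progenitors at 179 first. In all 3 genes OPCs, astroglia and oligodendrocytes followed in that order, with 57.3, 40.2 and 36.3 CPM for DCX, 1644, 1110 and 1051 for STMN1 and 41.9, 34.8 and 29.8 for MLLT11. Without E60_1 and E60_2 the interneuron-like medians were 278 CPM for DCX, 2864 for STMN1 and 465 for MLLT11, which put that class first for DCX and behind excitatory neurons for STMN1. Medians of different classes rest on different libraries. Whether neighbours in these orders differ could not be tested: at most 7 libraries held both classes of a pair, the smallest p of the exact sign-flip permutation test was 0.0156, and no pair could have passed adjustment over 21 pairs. Within libraries, DCX was higher in intermediate progenitors than in interneuron-like cells in 1 of 4, against the order of the medians, and higher in excitatory neurons than in OPCs in 4 of 4. MLLT11 was higher in OPCs than in astroglia in 5 of 5, and STMN1 in 2 of 5.

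The share of cells with at least 1 UMI was taken after thinning every cell to 1000 UMIs, pooled over libraries whose class make-up differs, and its order was not that of the medians throughout. DCX was found in 22.4% of excitatory neurons, 18.5% of interneuron-like cells, 23.6% of intermediate progenitors, 7.10% of OPCs and 3.70% of astroglia, against 0.979% in microglia and 0.750% in erythroid cells. At full depth the DCX shares were 79.6% of excitatory neurons at a median of 7347 UMIs, 79.5% of intermediate progenitors at 6504, 16.3% of astroglia at 5240 and 5.37% of microglia at 4952. STMN1 was found in 92.5% of thinned excitatory neurons, 90.7% of intermediate progenitors, 73.9% of astroglia, 60.4% of OPCs, 31.9% of microglia and 21.8% of erythroid cells. Most astroglia thus held an STMN1 UMI, astroglia ranked above OPCs here and below them by median level, and the source of the erythroid UMIs was not tested. MLLT11 was found in 45.1% of interneuron-like cells, 39.7% of excitatory neurons and fewer intermediate progenitors (62.5% at full depth), against 3.99% of astroglia and 2.54% of erythroid cells. DCX and STMN1 were found together in 20.8% of excitatory neurons, 21.3% of intermediate progenitors, 2.63% of astroglia and 0.346% of erythroid cells. The thinned DCX share of the neurons of E60_1 and E60_2 was 7.35% and 8.51%, against 32.6% of the interneuron-like cells of E60_3. Without E60_1 and E60_2 the interneuron-like shares were 23.3% for DCX, 86.9% for STMN1 and 42.5% for MLLT11, and DCX then ranked interneuron-like cells above excitatory neurons. Thinning left out 1962 adult and 25 E70 nuclei with fewer than 1000 UMIs, and intervals on shares cover counting error only.

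**Figure D2:**
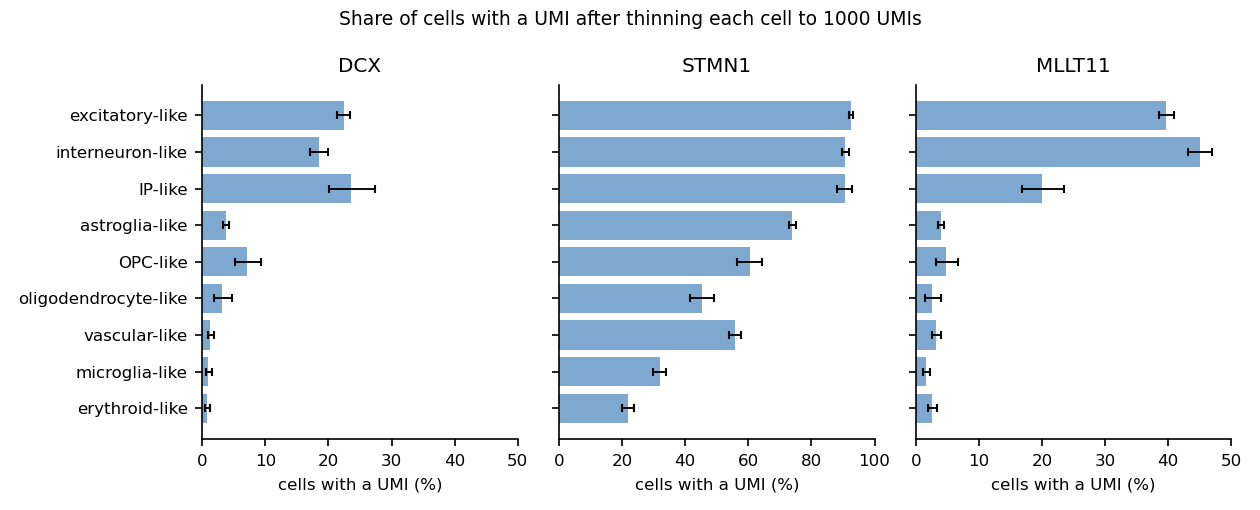
Percent of cells of each class with at least 1 UMI of DCX, STMN1 or MLLT11 after thinning each cell to 1000 UMIs, over all libraries, with 95% Clopper-Pearson intervals; the axis runs to 50% for DCX and MLLT11 and to 100% for STMN1. Neurons and intermediate progenitors stand above all other classes for DCX and MLLT11, and astroglia reach 73.9% for STMN1.

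All 3 genes were higher in neurons than in astroglia of the same library. Over 9 libraries, DCX averaged 187 ± 96.9 CPM (SD, n = 9) in neurons and 48.9 ± 20.1 in astroglia, a log2 fold change of 1.88 ± 0.24 (SE) or 3.69-fold (edgeR quasi-likelihood test with library as a block, Benjamini-Hochberg adjusted p = 4.91e-05). STMN1 averaged 4132 ± 2539 and 1269 ± 775 CPM, a log2 fold change of 1.75 ± 0.21 or 3.36-fold (edgeR adjusted p = 2.55e-05). MLLT11 averaged 666 ± 505 and 41.5 ± 35.6 CPM, a log2 fold change of 4.12 ± 0.24 or 17.4-fold (edgeR adjusted p = 1.66e-07). Each gene was higher in neurons in 9 of 9 libraries, in a comparison that called 36.1% of 13404 genes, 17.8% as higher and 18.3% as lower. Without E60_1 and E60_2 the log2 differences were 2.16, 1.84 and 3.98 for DCX, STMN1 and MLLT11. The ratio of neurons to astroglia ran from 1.42 in adult whole cells to 7.60 in E60_3 for DCX, from 1.52 in E70 nuclei to 5.14 in adult whole cells for STMN1, and from 4.29 in E70 nuclei upward for MLLT11, with the highest ratio in E60_1.

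Intermediate progenitors, the EOMES-positive cells that divide to give neurons, were compared with astroglia and with neurons to place the 3 genes along the neuronal lineage. Against astroglia, over 4 libraries and with 21.6% of 11299 genes called (9.43% higher and 12.2% lower), DCX was 5.87-fold higher (log2 2.55 ± 0.27, edgeR adjusted p = 9.27e-05), STMN1 2.00-fold (1.00 ± 0.15, edgeR adjusted p = 0.000956) and MLLT11 6.39-fold (2.68 ± 0.20, edgeR adjusted p = 1.43e-05), each in 4 of 4 libraries. From intermediate progenitors to neurons, with 14.3% of 13067 genes called, 7.52% higher and 6.83% lower, STMN1 was 1.82-fold higher (0.86 ± 0.17, edgeR adjusted p = 0.00588) and MLLT11 2.44-fold (1.29 ± 0.17, edgeR adjusted p = 0.000466), each in 4 of 4 libraries. DCX had a log2 difference of 0.0068 ± 0.17 between neurons and intermediate progenitors (95% interval from -0.36 to 0.38, edgeR adjusted p = 0.991) and was higher in neurons in 2 of 4 libraries. So DCX in intermediate progenitors stood at the level of all neurons together within that interval, whereas STMN1 and MLLT11 were higher again in neurons. Few cells of the class were marked as dividing, 10 of 560 (1.79%) by the strict definition given below. A mixed cluster of 357 cells, with CENPF and TOP2A among its leading genes, was left out of it. The comparison thus says little of dividing intermediate progenitors. Against interneuron-like cells alone, DCX was higher in intermediate progenitors in 1 of 4 libraries. Whether the genes differ from each other in this was not tested.

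None of the 3 genes passed the test between excitatory neurons and interneuron-like cells over 7 libraries, in which 6.71% of 12519 genes were called, 3.67% higher and 3.04% lower in excitatory neurons. DCX stood at 249 CPM in excitatory neurons and 190 in interneuron-like cells at E50, but was lower in excitatory neurons in each of the other 6 libraries, for example 305 against 385 in E60_3 and 189 against 338 in E70 nuclei. The log2 difference was -0.29 ± 0.14 (95% interval from -0.58 to 0.011, edgeR adjusted p = 0.297), and without the E50 library it was -0.45 (edgeR adjusted p = 0.0125). STMN1 was higher in excitatory neurons in 6 of 7 libraries, at 0.32 ± 0.11 on the log2 scale (95% interval from 0.094 to 0.55, edgeR adjusted p = 0.0978). MLLT11 had a difference of 0.10 ± 0.17 (edgeR adjusted p = 0.877) and was higher in excitatory neurons in 3 of 7 libraries.

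Other genes of the neuronal microtubule system, from a list of 47 of which 44 were in the files, gave the surroundings of the 3 genes. In neurons against astroglia 27 of the 42 list genes tested were called, 24 higher and 3 lower (36.1% of all genes, 17.8% higher and 18.3% lower), with a median log2 difference of 0.59 against 0.025 over all genes tested. The other stathmins, which also bind tubulin, were all higher in neurons, with STMN2 at 5.09, STMN4 at 2.56 and STMN3 at 2.46, so STMN1 at 1.75 had the smallest difference of the 4. The doublecortin relatives DCLK1 at 0.27, DCLK2 at -0.19 and DCDC2 at -0.10 did not pass the test, unlike DCX. Among tubulins, TUBB4A at 3.61 and TUBB3 at 3.44 were higher and TUBB6 at -2.42 was lower. The growth cone gene GAP43 was higher by 2.96, the collapsin response gene CRMP1 by 2.61, the microtubule-binding genes MAPT by 2.80 and MAP1B by 1.76, the axonal motor KIF5A by 2.58 and the neuronal kinase CDK5 by 1.73. NDE1, a dynein partner used in mitosis and migration, was lower, at -1.98.

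In intermediate progenitors against astroglia 18 of 42 list genes were called, 14 higher and 4 lower (21.6% of all genes, 9.43% higher and 12.2% lower), with a median of 0.44 against -0.012 over all genes. TUBB3 at 2.02, DPYSL5 at 2.05, STMN2 at 1.86 and GAP43 at 1.54 were higher together with the 3 genes, while STMN4 at 0.49 and STMN3 at -0.06 did not pass. In neurons against intermediate progenitors 17 of 41 were called, 14 higher and 3 lower (14.3% of all genes, 7.52% higher and 6.83% lower), with a median of 0.39 against 0.028. There STMN2 at 3.71, STMN3 at 2.02 and STMN4 at 1.43 were higher, as was MAPT at 2.40, whereas DCLK1 at -0.02, DCLK2 at -0.36 and DCDC2 at 0.28, like DCX, did not pass the test. In excitatory neurons against interneuron-like cells 7 of 41 were called, 5 higher and 2 lower (6.71% of all genes), with a median of 0.079 against 0.017, led by GAP43 at 1.64 and TUBB3 at 0.83 on the higher side and MAPK10 at -0.76 and DCLK2 at -0.71 on the lower.

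**Figure D3:**
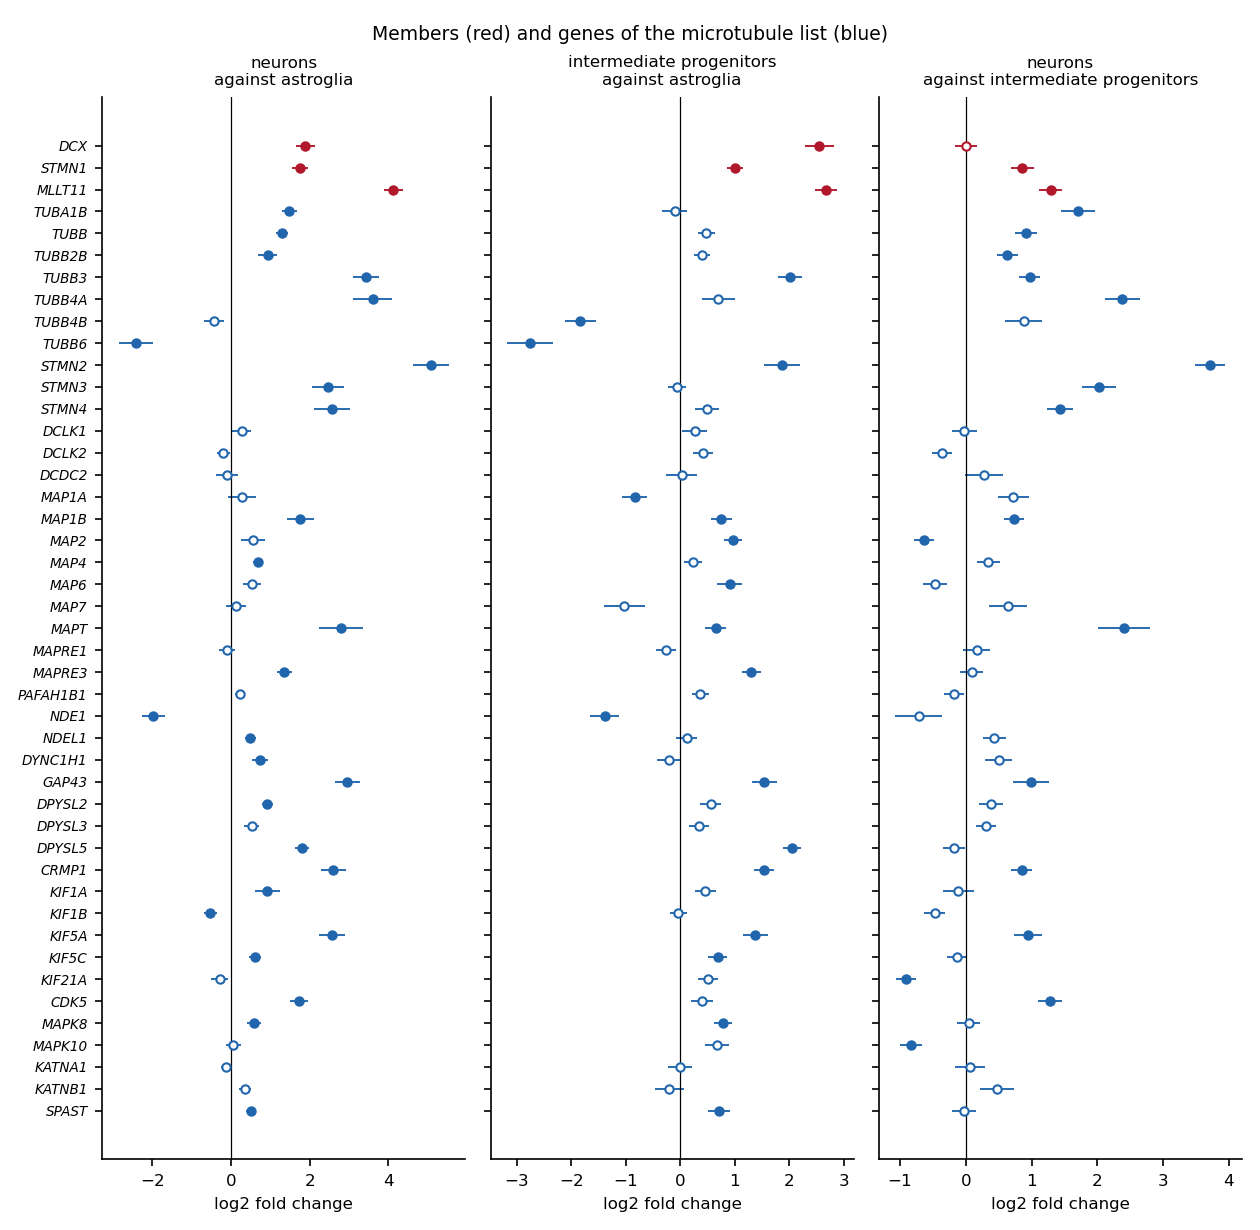
Log2 fold change ± SE of DCX, STMN1 and MLLT11 (red) and the microtubule list (blue) in neurons against astroglia, intermediate progenitors against astroglia and neurons against intermediate progenitors, with filled points for an edgeR adjusted p under 0.05. MLLT11 lies near the top of the first panel at 4.12 and DCX lies at 0.0068 in the third.

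Dividing cells were compared with non-dividing cells of the same class and library, since STMN1 is also known from proliferating cells. With at least 3 UMIs of a mitosis list (22 of 24 genes in the files) against none, 45.4% of excitatory neurons would count as dividing, and 26.5% with NUSAP1 left out of the list, so a stricter definition chosen after seeing the data is given beside it: at least 3 UMIs and 20 per 10000 of the list without NUSAP1, against none. It marked 1008 astroglia (17.9%), 139 OPCs (19.6%), 214 microglia (9.12%), 157 vascular cells (5.56%) and 10 intermediate progenitors (1.79%), but 0.0965% of excitatory neurons, and 434 astroglia lay near its limit.

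In astroglia STMN1 was higher and DCX lower in dividing cells. By the strict definition STMN1 stood at 4081, 4102, 3914 and 2483 CPM in dividing astroglia of E50, E60_1, E60_2 and E70_3, and at 2112, 1167, 1171 and 886 in non-dividing ones. The dividing values exceeded all 4 non-dividing ones, by 2.78-fold (log2 1.47 ± 0.14, edgeR adjusted p = 3.84e-07), in a comparison that called 28.6% of 10925 genes, 12.4% as higher and 16.3% as lower. DCX stood at 21.6, 27.3, 20.2 and 13.3 CPM in dividing astroglia and at 37.0, 37.2, 41.1 and 47.1 in non-dividing ones, so the values did not overlap (log2 -0.89 ± 0.19, edgeR adjusted p = 0.00173). The dividing values rest on 28, 62, 41 and 8 UMIs. In E60_2 the microglia, at 25.6 CPM of DCX, and in E70_3 the vascular cells, at 13.7, exceeded the dividing astroglia. In E50 and E60_1 microglia, vascular and erythroid cells stood lower, at up to 17.7 and 12.7 CPM. MLLT11 stood at 119, 33.8, 45.4 and 6.63 CPM against 136, 24.3, 59.9 and 10.0, a difference of -0.12 ± 0.16 (edgeR adjusted p = 0.609). By the looser definition, with 12.9% of 11969 genes called, 7.01% higher and 5.89% lower, STMN1 was 1.83-fold higher (0.87 ± 0.15, edgeR adjusted p = 0.000651) and DCX was at -0.60 ± 0.16 (edgeR adjusted p = 0.0141). Both calls of the looser definition were lost with DESeq2 (adjusted p = 0.0607 and 0.0795), and that of DCX also without E60_2 (edgeR adjusted p = 0.109) and with classes from each library alone (edgeR adjusted p = 0.292). By the strict definition dividing astroglia had more UMIs, with medians of 11373 against 7528 at E50 and 12609 against 6367 in E70_3. The strict definition was not run at equal depth. With each cell thinned to 2000 UMIs, dividing cells were those with at least 2 UMIs of the full mitosis list, NUSAP1 included, against none. By that definition STMN1 had a difference of 0.99 (edgeR adjusted p = 7.13e-19) and DCX had -0.34 (edgeR adjusted p = 0.269).

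The list genes that moved with STMN1 in dividing astroglia included 5 tubulins. By the strict definition 20 of 42 were called, 10 in each direction, against 28.6% of all genes, 12.4% higher and 16.3% lower. The tubulins TUBB6 at 4.95, TUBB4B at 2.62, TUBB at 2.13, TUBA1B at 1.03 and TUBB2B were higher, as were NDE1 at 2.44, the microtubule-severing gene KATNA1 at 0.91, the plus-end gene MAPRE1 at 0.53 and the dynein heavy chain DYNC1H1 at 0.46. KIF1A at -0.65, KIF21A at -0.64, TUBB3 at -0.61, DCLK2 at -0.51 and STMN3 at -0.35 were lower, as DCX was, and STMN2 was higher at 0.58.

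STMN1 was also higher in other dividing cells. OPCs of E60_1 stood at 4304 CPM when dividing by the strict definition and at 1290 when not, in 1 library and with no test. Microglia, compared after seeing the data, stood at 2354 and 2564 CPM in dividing cells of E60_1 and E60_2 and at 298 and 439 in non-dividing ones, 6.34-fold higher (edgeR adjusted p = 1.91e-172, with 16.1% of genes called, 8.59% higher and 7.54% lower). The fit had 2 libraries, so its p hardly reflects spread between libraries. The non-dividing microglia were below the erythroid cells of their libraries, at 449 and 464 CPM, so the fold is one against a level that erythroid cells exceeded. Dividing vascular cells of E60_1 and E60_2 stood at 3108 and 2525 CPM against 1023 and 948 in non-dividing ones, 2.85-fold higher (edgeR adjusted p = 2.56e-24, with 9.27% of genes called, 5.68% higher and 3.6% lower). The vascular fit also had 2 libraries, so its p has the same limit. With the looser definition the microglial difference was 3.81-fold (edgeR adjusted p = 6.13e-05, with 2.55% of 8537 genes called, 2.09% higher and 0.469% lower), at 65.9 against 69.2 CPM in the adult library, and the call was lost with DESeq2 (1.48, adjusted p = 0.787) and without the library block (edgeR adjusted p = 1.00). The looser vascular difference, over the same 2 libraries, was 0.68 on the log2 scale (edgeR adjusted p = 3.48e-07, with 6.3% of genes called, 3.01% higher and 3.29% lower). By the strict definition DCX did not pass the test in dividing microglia, at 1.12 (edgeR adjusted p = 0.0629), and had a difference of -0.018 in vascular cells.

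In intermediate progenitors none of the 3 genes passed the test. The looser definition marked 39.6% of the class and the strict one 1.79%, against 45.4% and 0.0965% of excitatory neurons. A cluster of 357 cells, with CENPF and TOP2A among its leading genes, scored highest on the intermediate progenitor markers. Its score was 0.996, against 0.786 on the astroglia markers, so it stayed unnamed as mixed and was left out. The level of STMN1 in dividing intermediate progenitors was thus not settled. By the looser definition STMN1 stood at 4233 and 2382 CPM in dividing and at 4879 and 2102 in non-dividing intermediate progenitors of E50 and E60_3, a difference of -0.035 (edgeR adjusted p = 0.997). DCX stood at 266 and 314 against 235 and 336 CPM, a difference of 0.029 ± 0.19 (edgeR adjusted p = 0.998), and MLLT11 differed by -0.16 (edgeR adjusted p = 0.997). This comparison called 0.227% of 7062 genes, 0.184% higher and 0.0425% lower, 16 in all against 386 at an unadjusted p under 0.05 and 0 by DESeq2, and too few cells met the strict definition for a fit, so a difference between classes was not tested.

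**Figure D4:**
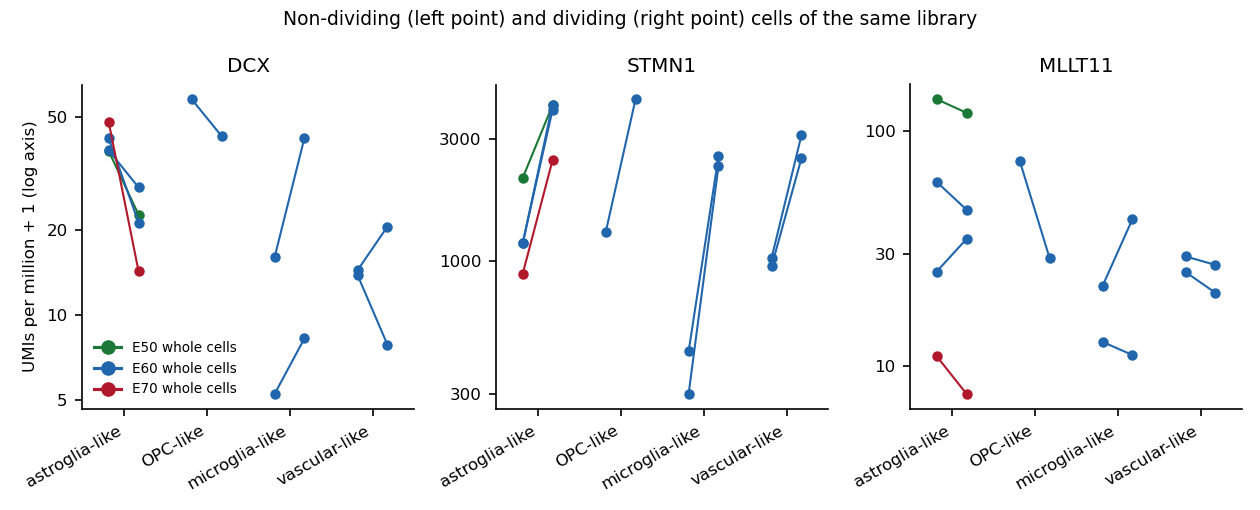
Level of DCX, STMN1 and MLLT11, as CPM, in non-dividing (left) and dividing (right) cells of astroglia, OPCs, microglia and vascular cells by the strict definition, with lines joining the sums of 1 library. STMN1 is higher at the dividing end of every line, and DCX is lower at that end of all 4 astroglial lines.

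The only stages with replicate libraries were E60 and E70, and the 3 genes were compared between them in neurons and in astroglia. No gene of 13892 was called in neurons (0%, edgeR, against 3219 at an unadjusted p under 0.05 and 1376 by DESeq2) and none of 13703 in astroglia (0%, edgeR, against 2761 and 990). In neurons DCX averaged 240 ± 30.9 CPM at E70 and 153 ± 143 at E60 (log2 0.55 ± 0.55, edgeR adjusted p = 0.557). STMN1 averaged 3636 ± 1206 and 5330 ± 1155 CPM (-0.76 ± 0.52, edgeR adjusted p = 0.392), and MLLT11 465 ± 274 and 727 ± 502 (-0.88 ± 0.76, edgeR adjusted p = 0.488; SD and n = 3 throughout). The values of the stages overlapped in all 3 genes. The neurons of E60_1 and E60_2 were almost wholly of the interneuron-like class, while those of E60_3 and the E70 libraries were mostly excitatory. In astroglia DCX averaged 65.6 ± 24.0 and 34.8 ± 7.07 CPM (0.85 ± 0.34, edgeR adjusted p = 0.228) and STMN1 1025 ± 87.6 and 1762 ± 578 (-0.84 ± 0.37, edgeR adjusted p = 0.250), and MLLT11 had a difference of 0.045 ± 0.76 (edgeR adjusted p = 0.979). The interaction of stage and class called no gene of 14929 (0%, edgeR, against 1188 at an unadjusted p under 0.05 and 2 by DESeq2), with adjusted p = 0.998, 0.999 and 0.599 for DCX, STMN1 and MLLT11.

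Libraries of 1 stage stood apart from each other. Over 13404 genes the neurons of E60_3 correlated with those of E70_3 at r = 0.981, and with those of E60_1 and E60_2 at 0.791 and 0.749 (across genes, which are not independent). E60_3 and E70_3 shared a sequencing pool, going by the pool numbers of the study, and E60_1 and E70_1 shared another. The neurons of E60_1 and E70_1 correlated at r = 0.612, below the 0.859 of E60_3 with E70_1, which were in different pools. In the first pool the neurons had 319 CPM of DCX at E60 and 274 at E70, 4209 and 5028 of STMN1, and 197 and 163 of MLLT11. In the second they had 75.6 and 230 of DCX, 6517 and 2925 of STMN1, and 789 and 534 of MLLT11. The direction thus differed between the pools for DCX and STMN1 in neurons. The neurons of the second pool differed in make-up, with 13 excitatory and 735 interneuron-like cells in E60_1 and 239 and 70 in E70_1. Those of the first were mostly excitatory at both stages, with 1229 and 264 cells in E60_3 and 1535 and 339 in E70_3. Whether this make-up bears on the direction was not tested. In astroglia the first pool had 41.9 and 40.2 CPM of DCX and 1110 and 1119 of STMN1, and the second 34.5 and 87.9 of DCX and 1958 and 945 of STMN1. Without E60_3 the neuronal DCX difference was 1.45 (edgeR adjusted p = 0.0189), and without E70_3 the astroglial one was 1.08 (edgeR adjusted p = 0.0466).

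Over all neurons and in astroglia, MLLT11 was the member that separated those libraries most. In neurons it was 5.03-fold lower in E60_3 than the mean of E60_1 and E60_2, and 3.77-fold lower in E70_3 than the mean of E70_1 and E70_2. In astroglia it was 3.16-fold and 6.48-fold lower. DCX went the other way in E60_3 neurons, with a log2 ratio to that mean of 2.16 against -2.32 for MLLT11. In interneuron-like cells of E60_3 the DCX ratio was the larger, at 2.46 against -2.23. TUBB3, another neuronal gene, was 4.85-fold and 4.80-fold lower in the neurons. STMN2, also a neuronal gene, was 1.39-fold lower in neurons of E60_3. It was higher in neurons of E70_3, at 4323 CPM against 691 and 1285 in E70_1 and E70_2. E60_3 and E70_3 share a pool, so the pool and any other property of these libraries cannot be told apart. GCNT1, which no list held and which was noticed after its values were seen, stood at 864 and 1149 CPM in neurons of E70_1 and E70_2 and at 17.0 in E70_3. It did not follow the MLLT11 pattern at E60, with 9.95, 11.5 and 21.8 CPM in neurons of E60_1, E60_2 and E60_3. Erythroid cells of E70_1 and E70_2 also held 641 and 991 CPM of it.

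**Figure D5:**
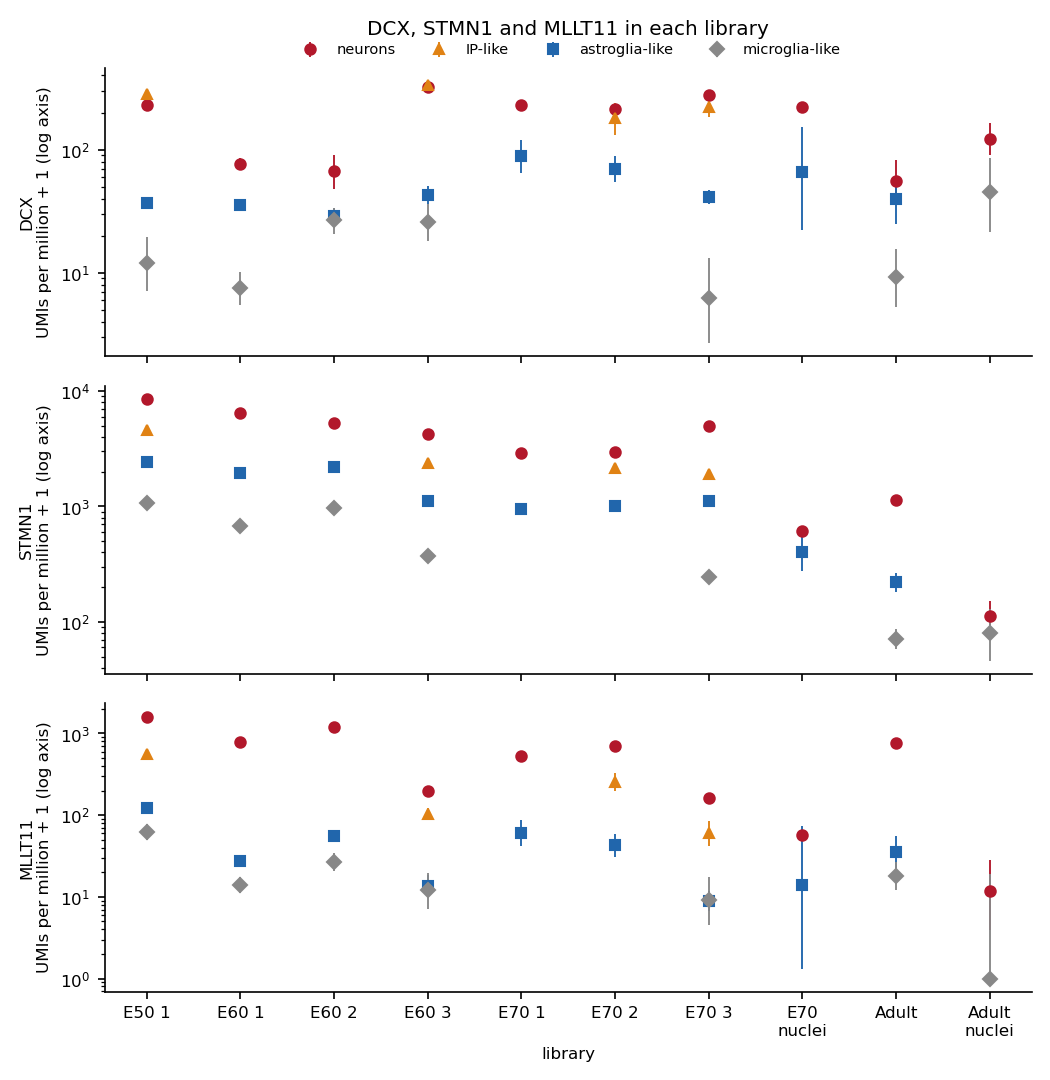
Level of DCX, STMN1 and MLLT11 in neurons, intermediate progenitors, astroglia and microglia of each of the 10 libraries, as CPM plus 1 on a log axis, with 95% Poisson intervals and at least 20 cells per point. E60_1 and E60_2 are low for DCX in neurons at 75.6 and 65.5, and E60_3 and E70_3 are low for MLLT11 at 197 and 163.

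In the adult, whose libraries were single, all 3 genes had UMIs in neurons, but in nuclei MLLT11 was not above its level in oligodendrocytes. Adult whole-cell neurons had 54.7 CPM of DCX (24 UMIs in 34 cells, 95% Poisson interval from 35.1 to 81.4) and astroglia 38.4 (23.8 to 58.7), so the intervals overlapped. The same neurons had 1129 CPM of STMN1 (1031 to 1233) against 220 in astroglia, 70.3 in microglia and 53.8 in erythroid cells, and 762 of MLLT11 (682 to 848) against 34.8, 17.2 and 40.3. STMN1 was highest there in the oligodendrocytes, at 1822 CPM in 197 cells (1760 to 1885), above the neurons of that library, whose MBP level stood at 2930 CPM and whose share of oligodendrocyte RNA was not tested, while in adult nuclei the 1732 oligodendrocytes had 180 and the neurons 111. Adult neuronal nuclei had 121 CPM of DCX (45 UMIs, 88.5 to 162), against 25.8 in oligodendrocytes, 34.5 in OPCs and 44.3 in microglia. MLLT11 stood at 10.8 CPM in them (4 UMIs, 2.94 to 27.6), below the 18.6 of oligodendrocytes and the 14.1 of all cells together, with intervals that overlapped between neurons and oligodendrocytes.

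Nuclei and whole cells of E70 gave like DCX levels but unlike STMN1 and MLLT11 levels. In neurons DCX stood at 219 CPM in the single nuclei library and at 240 ± 30.9 in the 3 whole-cell libraries. STMN1 stood at 611 against 3636 ± 1206, 5.95-fold lower in nuclei, and MLLT11 at 55.6 against 465 ± 274, 8.36-fold lower. Only 10.2% and 7.99% of 8959 genes had a lower ratio of nuclei to whole cells than STMN1 and MLLT11, against 44.3% for DCX, and with 1 nuclei library there was no test. Genes with a span under 10 kb had a median log2 ratio of -2.90, those of 10 to 100 kb -0.065 and those over 100 kb 0.60, and STMN1 and MLLT11 belong to the first and DCX to the last.

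Over 61 sums of a class in a library, the genes most like each of the 3 were named by Pearson's r of log2(CPM + 10) among 8097 genes, as a description, since the points share libraries and depth. DCX went most closely with the unnamed gene ENSSSCG00000036516 at 0.924, NOL4 at 0.919, EPHA5 at 0.912, CELF5 at 0.911 and ST8SIA2, which adds polysialic acid in the developing brain, at 0.911. STMN1 went with the tubulins TUBA1B at 0.951 and TUBB at 0.921, then RTN1 at 0.914, ZNF32 at 0.908 and MAGED1 at 0.903. MLLT11 went with the synaptic vesicle genes RAB3A at 0.914 and SYT5 at 0.894, then CRMP1 at 0.878, SEPTIN5 at 0.872 and NSG2 at 0.867. Between themselves DCX and STMN1 had r = 0.770, STMN1 and MLLT11 0.750 and DCX and MLLT11 0.706, so none of the 3 was among another's closest genes.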

How the data were processed

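Single cells and nuclei of pig MEC were captured with Chromium version 2 chemistry, and the authors mapped reads to pre-mRNA of Sscrofa11.1 with Ensembl release 94 by Cell Ranger 2.2.0 with STAR 2.5.1b, per the study's methods, so introns counted. The deposited values are raw counts of UMIs per gene and cell, from 2336865 to 55755512 per library. Python 3.11.15 (numpy 2.4.6, scipy 1.17.1, pandas 2.3.3) was used to cluster cells on 3000 variable genes with 142 marker, list and member genes left out, and thresholds for naming were set after seeing the data; naming needed at least 3 markers. Clustering each library alone gave the same class for 75.2% of cells. No doublet caller was run, and an alternative left out cells above 2 times their library's median UMIs (10.4%). Library pairs shared at most 57 barcodes.

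Counts were summed per library and class (at least 20 cells) and fitted with edgeR 4.0.16 in R 4.3.3 (TMM, genes with a minimum count of 10, library as block, quasi-likelihood test, Benjamini-Hochberg adjustment over all genes); DESeq2 1.42.0, other filters, scalings, classes, thinning and left-out libraries were alternatives. SE is the log2 fold change over the root of F. The replicate numbers of E60 and E70 were not found to pair the samples. Intervals cover counting error only.

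The members and lists were chosen with earlier results of these data known. Genes named are the 3 members, up to 2 called genes of the largest change per group of the microtubule list, stathmins and doublecortins, and the 5 most similar genes; other list genes were added after their values were seen.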

Additional observations from a re-analysis of the deposited data

Results flagged for a closer look

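DCX in excitatory neurons against interneuron-like cells had opposite directions in libraries of different stages, whose classes differed in make-up. As the log2 ratio of the mean CPM, it was 0.386 at E50, -0.335 at E60, -0.44 at E70, -0.841 in E70 nuclei and -0.247 in adult nuclei. The 95% Poisson intervals belong to the level of each class in a library, and none is given here for a ratio. Every group with both classes is listed, whatever its counting error. E50, both nuclei groups and E60 gave 1 library each for this ratio, and the difference between stages was not tested. The excitatory cluster led by LHX9 and TFAP2D, with a marker score of 0.154, was 97.7% E50. The largest interneuron-like cluster, led by PENK and SST with 3 markers detected, held 1258 cells and came most from E60_1, at 47.4%. Smaller interneuron-like clusters led by CALB1 and by PCP4, also with 3 markers detected, were 59.5% and 73.4% E50. Those led by ERBB4 and by NXPH1, with 6 markers, came most from E70_3, at 27.5% and 36.2%. Whether this make-up bears on the DCX ratio was not tested.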

How the results depend on the processing

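Of 480 values of the 3 genes under alternatives, 409 kept their direction and side of the threshold, 19 no longer passed, 3 newly passed and 49 changed sign, and the causes were not tested. Without the library block, STMN1 in neurons against astroglia was 1.72 (edgeR adjusted p = 0.0579), in intermediate progenitors against astroglia 1.00 (0.253; MLLT11 2.45, 0.240), in neurons against intermediate progenitors 0.86 (0.632; MLLT11 1.38, 0.742; DCX -0.022), in dividing astroglia 0.82 (0.942; DCX -0.62, 0.472), in dividing microglia 2.05 (1.00) and in dividing vascular cells 0.68 (0.174), with edgeR adjusted p in each bracket. Genes called then fell to 2096 from 4835, 420 from 2439, 69 from 1875, 39 from 840 (excitatory neurons against interneuron-like cells), 186 from 1544, 0 from 16 (dividing intermediate progenitors), 0 from 218 and 25 from 768. Cells thinned to 1000 UMIs gave 2266, 863, 703, 500, 545, 0, 17 and 130 genes, DCX in dividing astroglia at -0.80 (0.0971), and sign changes for MLLT11 of excitatory neurons (-0.17), vascular cells (-0.088) and E70 astroglia (-1.12) and for the STMN1 interaction (0.20). Thinned to 2000 UMIs, with dividing cells from 2 mitosis UMIs, DCX in dividing astroglia was -0.34 (0.269) and in dividing intermediate progenitors -0.31, with 6 and, in vascular cells, 82 genes called.

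With classes from each library alone, STMN1 in intermediate progenitors against astroglia was 0.73 (0.0524; 1516 genes), neurons against intermediate progenitors called 1119 genes, MLLT11 in excitatory neurons was -0.028, DCX and MLLT11 in dividing astroglia -0.40 (0.292) and 0.12, DCX, STMN1 and MLLT11 in dividing intermediate progenitors -0.16, 0.11 and 0.43 (4 genes), DCX and MLLT11 at E70 in astroglia -0.16 and -1.27, and microglia called 82 genes. DESeq2 gave DCX -0.61 (0.0795) and STMN1 0.89 (0.0607) in dividing astroglia (858 genes), STMN1 1.48 (0.787) in microglia (28 genes), DCX -0.0045 in neurons against intermediate progenitors and -0.0034 in dividing ones (0 genes), 75 genes in vascular cells, and 1376, 990 and 2 genes for E70 against E60 in neurons, astroglia and the interaction. With no low-count filter STMN1 in dividing intermediate progenitors was 0.025, its interaction 0.19, MLLT11 at E70 in astroglia -0.095, and microglia called 489 genes. Sums of at least 10 cells gave DCX -0.041 in dividing intermediate progenitors (4 genes) and STMN1 0.58 (0.0966) in vascular cells (69 genes). The strict definition called 3128 genes in astroglia, 1444 in microglia, and gave DCX -0.018 and MLLT11 -0.21 in vascular cells. Whole cells alone gave MLLT11 -0.044 in excitatory neurons. Without very deep cells it was -0.0050, DCX in dividing intermediate progenitors was -0.016, the DCX and STMN1 interactions -0.024 and 0.077, and vascular cells called 280 genes; without TMM the STMN1 interaction was 0.15.

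Without E60_1 and E60_2, E70 against E60 gave DCX -0.42 and MLLT11 1.21 in neurons and a DCX interaction of -1.05, and DCX in dividing astroglia was -0.59 (0.203; 542 genes). Without E70_1 and E70_2 MLLT11 in astroglia was -2.08 and the STMN1 interaction 0.48. Same-numbered E60 and E70 libraries did not deviate together (r = -0.22, -0.021 and -0.21 in neurons, -0.13, 0.12 and -0.040 in astroglia). With a replicate block DCX, STMN1 and MLLT11 were 0.85, -0.77 and -0.72 in neurons and 0.82, -0.77 and -0.0043 in astroglia, with 0 genes called in both.

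Leaving out 1 library moved DCX from 0.18 to 1.45 in neurons and from 0.61 to 1.08 in astroglia between stages, from -0.70 to -0.49 in dividing astroglia (edgeR adjusted p = 0.109 without E60_2), from -0.45 to -0.21 in excitatory neurons, from -0.056 to 0.17 in neurons against intermediate progenitors and from -0.41 to 0.64 in the interaction. It moved MLLT11 from -0.47 to 0.75 at E70 in astroglia, from -0.064 to 0.64 in microglia and from -0.038 to 0.23 in excitatory neurons, and the STMN1 interaction from -0.20 to 0.23. Genes called ran from 0 to 4844, 1783 and 2228 for the stages and interaction, 664 to 1553 in dividing astroglia, 70 to 1244 in microglia, 454 to 1164 in excitatory neurons, 1137 to 2516 in intermediate progenitors against astroglia and 870 to 1975 in neurons against them. Without TMM the share of called genes that were higher went from 54.3% to 71.6% in dividing astroglia, 54.6% to 44.5% in excitatory neurons, 81.7% to 94.4% in microglia and 47.8% to 69.4% in vascular cells. OPCs had too few libraries for a fit, and leaving out libraries was not run for fits of 2 libraries.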
